A study of Mus musculus with 6 samples.

Results

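The genes of the IL-6 and IL-12 cytokine families were followed in macrophages labelled as a knockout of Xbp1 and in macrophages with floxed Xbp1 alleles. The set comprised 10 genes, selected by name from the 54660 rows of the deposited gene table, and each name matched a single row. They are Il6, Lif and Osm, the IL-12 family chains Il12a, Il12b, Il23a, Il27 and Ebi3, and the receptor chains Il6ra and Il6st. Bone marrow-derived macrophages, which are grown in culture from mouse bone marrow, were compared between Xbp1M-KO mice (KO, labelled as the knockout) and Xbp1FL/FL mice (WT, the floxed control). Both genotypes were on the C57BL/6 strain and 6 to 8 weeks old, and all cells had received lipopolysaccharide (LPS), the outer membrane glycolipid of Gram-negative bacteria, for 6 h. Each genotype had 3 libraries, and whether each came from its own animal is not stated in the labels, so the p-values rest on a spread between libraries that may be technical. The sources used here do not give the Cre driver or the deleted exons, and unstimulated cells were not analysed here.

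IL-6 is an inflammatory cytokine that binds the IL-6 receptor alpha chain (Il6ra) and then recruits the signal-transducing chain encoded by Il6st, which LIF and oncostatin M also use. That chain activates JAK kinases and the transcription factor STAT3. The IL-12 family consists of heterodimers that share subunits. The products of Il12a and Il12b form IL-12, those of Il23a and Il12b form IL-23, and those of Il27 and Ebi3 form IL-27. LPS induces many of these cytokines in macrophages through NF-kappa-B and C/EBP factors, and XBP1 is the factor that the endoplasmic reticulum stress sensor IRE1 activates in the unfolded protein response.

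Transcripts of the 2 genes whose products pair in IL-27 moved in opposite directions, as did IL-6 and its receptor chains. In KO macrophages Il6, Il27 and Lif fell, while Il12b, Ebi3, Il6ra and Il6st rose. Osm and Il12a did not pass the test, and Il23a was too low to test. Of 9 tested members, 4 were called higher and 3 lower in KO, where a call is an edgeR adjusted p under 0.05 over all 13080 tested genes. Calls were common in this comparison, since 61.3% of all tested genes were called, 31.5% higher and 29.8% lower. The groups did not overlap for 7 of the 9 members and for 65.9% of tested genes. The change was called and reached 2-fold for 3 members, Il6, Il27 and Il6ra, and for 6.87% of tested genes. Once trends with GC content and gene length were removed, Il6ra rose by 0.92 on the log2 scale, short of 2-fold. The median log2 fold change was 0.21 over the tested members and -0.0016 over all tested genes, and the median absolute log2 fold change was 0.57 for the members and 0.36 for all tested genes. The members' median was 0.12 without WT replicate 3, 0.33 with library totals as the scaling and 0.32 once trends with GC content and gene length were removed.

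The upstream sequences of Il6, Ebi3 and Il12b are shown because these LPS-induced genes changed in different directions. RefSeq windows on GRCm38.p6, the assembly also called mm10, were found for 7 of the 10 members. Each sequence is the 250 bases before the RefSeq start, 5′ to 3′ on the gene's strand, which is the plus strand for all shown. Capitals mark matches on either strand to the NF-kappa-B consensus GGGRNNYYCC or to the C/EBP motif TTNCNNAA. In these, R is A or G, Y is C or T and N is any base.
Il6, chr5:30012864-30013113: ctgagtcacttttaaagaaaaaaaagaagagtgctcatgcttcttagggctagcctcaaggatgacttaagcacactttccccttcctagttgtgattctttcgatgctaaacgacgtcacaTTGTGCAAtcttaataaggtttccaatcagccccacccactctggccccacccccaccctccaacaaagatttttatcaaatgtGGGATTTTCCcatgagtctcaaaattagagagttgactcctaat
Ebi3, chr17:55952373-55952622: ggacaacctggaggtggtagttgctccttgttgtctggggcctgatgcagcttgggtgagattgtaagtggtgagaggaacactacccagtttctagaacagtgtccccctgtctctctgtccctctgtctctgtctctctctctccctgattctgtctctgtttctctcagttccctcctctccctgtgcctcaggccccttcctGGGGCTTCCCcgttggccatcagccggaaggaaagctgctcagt
Il12b, chr11:44399813-44400062: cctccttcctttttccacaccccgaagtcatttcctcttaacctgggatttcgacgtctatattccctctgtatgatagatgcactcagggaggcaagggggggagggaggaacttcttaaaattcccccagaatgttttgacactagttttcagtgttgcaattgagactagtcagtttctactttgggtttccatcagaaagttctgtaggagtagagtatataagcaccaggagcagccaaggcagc

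Il6, which fell, and Ebi3, which rose, each held a match to the NF-kappa-B consensus at bases 44 to 35 before the start. Such a match was present in 7.25% of 32851 RefSeq windows of the same length. Il6 also held a C/EBP match at bases 128 to 121, a motif present in 36.8% of windows, and a match to the AP-1 motif TGANTCA at bases 249 to 243, present in 6.75%. These matches in Il6 did not overlap each other. Lif, which also fell, held an NF-kappa-B match at bases 178 to 169 and an AP-1 match at bases 228 to 222. Il6ra held 2 C/EBP matches, and the windows of Il12b, Il12a and Il6st held no exact match to the motifs searched. Sites that depart from these letters were not searched for. The core of the unfolded protein response element, TGACGTG, occurred in no member window and in 1.65% of all windows. The partial endoplasmic reticulum stress element CCACG occurred in the Lif window and in 28.3% of all windows. All motifs were searched on both strands, and a match describes letters only.

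Library totals lay between 31976748 and 42448058 counts in KO and between 32584064 and 37652501 counts in WT. Levels are given as CPM, counts scaled to a common library size with TMM factors. Before these factors, 3 counts equalled between 0.0707 and 0.0938 CPM. Xbp1 had 66.3, 65.5 and 65.6 CPM in KO libraries 1 to 3, against 91.2, 88.2 and 87.5 CPM in WT libraries 1 to 3, and changed by -0.44 on the log2 scale (SE 0.0363, edgeR adjusted p = 2.38e-08). The KO mean was 0.740 times the WT mean, so most of the transcript signal remained, and counts over the whole gene do not show whether a deleted part was lost. The macrophage markers Adgre1, Csf1r, Cd68, Itgam, Lyz2, Mertk and Fcgr1 were all tested. Their summed level was 16283 to 16928 CPM in KO libraries and 33886 to 35441 CPM in WT libraries, with 3 members called higher and 3 lower. Lyz2 made up most of this sum, with means of 11515 CPM in KO and 29831 CPM in WT. Adgre1 (0.49), Csf1r (0.55) and Itgam (0.60) were called higher, and Lyz2 (-1.37), Fcgr1 (-0.38) and Cd68 (-0.24) lower. Mertk was not called. For comparison, 31.5% of all tested genes were called higher and 29.8% lower. Dendritic cell markers, 3 of 8 tested, summed to 10.1 to 10.7 CPM in KO and 9.47 to 10.7 CPM in WT, with changes in both directions. Xcr1 averaged 1.90 CPM in KO and 3.68 CPM in WT and was called lower (-0.96), while Itgax (0.55) and Ccr7 (0.38) were called higher, and Flt3, Zbtb46, Clec9a, Cd209a and Siglech did not pass the filter. Neutrophil markers, 4 of 7 tested and all 4 called higher, summed to 195 to 208 CPM in KO and 149 to 164 CPM in WT. S100a9 (0.49) and S100a8 (0.23), which LPS-treated macrophages also express, made up nearly all of that sum. Elane (2.57) and Prtn3 (1.68) reached the filter in KO alone, at means of 0.484 CPM and 0.578 CPM in KO and of 0.0804 CPM and 0.177 CPM in WT, and Ly6g, Mpo and Cxcr2 did not pass it. Mast cell and basophil markers summed to 0.773 to 1.08 CPM in KO and 1.27 to 1.80 CPM in WT. Of these 5 genes Fcer1a and Ms4a2 were at 0 in every library, and Mcpt8 alone was tested and called lower (-1.24). Kit and Cpa3 did not pass the filter and had overlapping groups. Kit averaged 0.317 CPM in KO and 0.161 CPM in WT, and Cpa3 0.00758 CPM in KO and 0.0426 CPM in WT. Lymphocyte markers summed to at most 0.241 CPM in KO and 0.151 CPM in WT, and none passed the filter. The part of these marker differences in the results on the family was not tested.

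**Figure D1:**
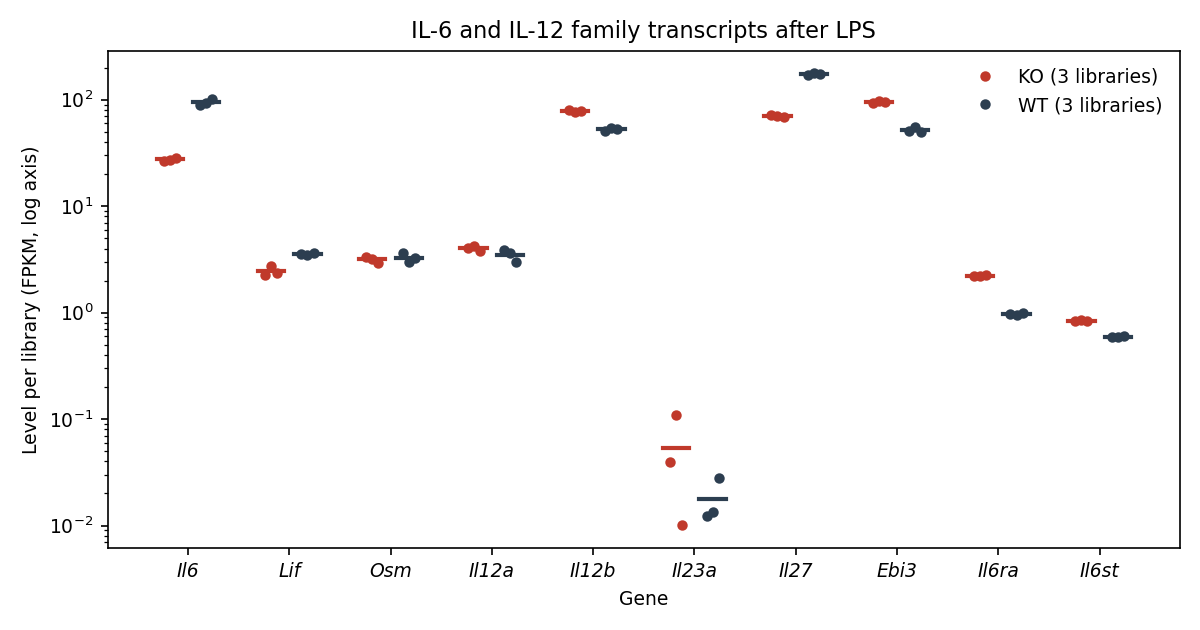
Levels of the 10 family members in each library, as the authors' deposited FPKM on a log axis. Points are libraries and bars are means of 3 libraries per genotype. Il6, Lif and Il27 lie lower in KO than in WT, Il12b, Ebi3, Il6ra and Il6st lie higher in KO, and the groups overlap for Osm, Il12a and Il23a.

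Il6 (ENSMUSG00000025746, chromosome 5, 30013114 to 30019981 on mm10) had 65.6, 66.6 and 69.9 CPM in KO libraries 1 to 3, against 220.5, 225 and 247 CPM in WT libraries 1 to 3. The KO libraries lay within a narrow band and all below the lowest WT library. The mean was 67.3 ± 2.25 CPM in KO and 230.9 ± 14.1 CPM in WT (SD, n = 3 each). The log2 fold change was -1.78 (SE 0.0448, 95% interval -1.87 to -1.68, edgeR adjusted p = 4.32e-14), so the KO mean was 0.292 times the WT mean. With trends on GC content and gene length removed, it was -1.32 (edgeR adjusted p = 3.90e-14), outside that interval. In these bulk samples, fewer cells that make a transcript and less of it per cell cannot be told apart.

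Lif and Osm lie side by side on chromosome 11, with 16530 bases between them, and encode related cytokines that signal through Il6st. Lif (ENSMUSG00000034394, 4257557 to 4272514) had 9.89, 11.9 and 10.3 CPM in KO libraries, against 15.5, 15.3 and 15.9 CPM in WT libraries. All KO libraries lay below all WT libraries, and KO replicate 2 was the highest of its group. Lif fell by 0.54 on the log2 scale (SE 0.0764, 95% interval -0.70 to -0.38, edgeR adjusted p = 1.14e-05). With trends on GC content and gene length removed, its log2 fold change was -0.76 (edgeR adjusted p = 3.12e-07), outside that interval. Osm (ENSMUSG00000058755, 4236420 to 4241026) had 7.70, 7.33 and 6.75 CPM in KO libraries, against 8.32, 6.78 and 7.52 CPM in WT libraries. The Osm groups overlapped. Its log2 fold change was -0.061 with a 95% interval of -0.27 to 0.15 (edgeR adjusted p = 0.615), and the sign was positive at 0.019 without WT replicate 1 and at 0.054 with library totals as the scaling.

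Among the IL-12 family chains, Il12b and Il12a encode the subunits of IL-12, and the product of Il12b is also part of IL-23. Il12b (ENSMUSG00000004296, chromosome 11, 44400063 to 44414033) had 159, 150.5 and 156 CPM in KO libraries, against 101, 107.5 and 105 CPM in WT libraries. Every KO library lay above every WT library, and Il12b rose by 0.57 on the log2 scale (SE 0.0371, 95% interval 0.49 to 0.65, edgeR adjusted p = 1.22e-09), to 1.48 times the WT mean. With trends on GC content and gene length removed, the rise of Il12b was 0.80 (edgeR adjusted p = 1.55e-11), outside that interval. Il12a (ENSMUSG00000027776, chromosome 3, 68690644 to 68698547) had 6.98, 7.28 and 6.52 CPM in KO libraries, against 6.58, 6.15 and 5.15 CPM in WT libraries. The lowest KO library lay below the highest WT library. Its log2 fold change was 0.21 (95% interval -0.016 to 0.44, edgeR adjusted p = 0.0994). That value passed the test without WT replicate 1 (0.29, edgeR adjusted p = 0.0465), with scaling by library totals (0.33, edgeR adjusted p = 0.0145) and once trends with GC content and gene length were removed (0.47, edgeR adjusted p = 0.00175), and was 0.12 without WT replicate 3.

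Il23a, the chain specific to IL-23, was at the detection limit. It had 3, 9 and 1 counts in KO libraries 1 to 3, against 1, 1 and 2 counts in WT libraries 1 to 3, and did not pass the expression filter. KO replicate 2 held 9 of the 13 KO counts, and the groups overlapped. The ratio of KO to WT was 2.87 with an exact 95% interval of 0.888 to 12.1 for counting error only, so a difference was not detectable at this depth.

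The chains of IL-27 changed in opposite directions. Il27 (ENSMUSG00000044701, chromosome 7, 126589010 to 126594941), the cytokine-like chain, had 73.5, 72.8 and 70.6 CPM in KO libraries, against 174, 181 and 179 CPM in WT libraries. Il27 fell by 1.30 on the log2 scale (SE 0.0356, 95% interval -1.38 to -1.22, edgeR adjusted p = 6.89e-14), and the KO mean was 0.406 times the WT mean. With trends on GC content and gene length removed, the log2 fold change of Il27 was -1.18 (edgeR adjusted p = 4.91e-13), outside that interval. Ebi3 (ENSMUSG00000003206, chromosome 17, 55952640 to 55957022), the receptor-like chain, had 107.7, 113.6 and 109.8 CPM in KO libraries, against 59.2, 64.1 and 58.2 CPM in WT libraries. Ebi3 rose by 0.87 on the log2 scale (SE 0.0421, 95% interval 0.78 to 0.96, edgeR adjusted p = 3.97e-11), to 1.82 times the WT mean. For both genes the KO and WT libraries did not overlap. Il27 shares 103 exon bases with Apobr on the other strand, and Ebi3 shares 270 with the antisense gene Gm16712. The sources used here do not say whether strand was kept. Apobr averaged 55.5 CPM in KO and 46.1 CPM in WT, and Gm16712 1.34 CPM in KO and 1.41 CPM in WT.

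Both receptor chains were higher in KO. Il6ra (ENSMUSG00000027947, chromosome 3, 89864059 to 89913196) had 19.0, 19.4 and 19.6 CPM in KO libraries, against 8.46, 8.17 and 8.70 CPM in WT libraries. Il6ra rose by 1.20 on the log2 scale (SE 0.066, 95% interval 1.06 to 1.34, edgeR adjusted p = 1.68e-10), to 2.29 times the WT mean. With trends on GC content and gene length removed, the rise of Il6ra was 0.92 (edgeR adjusted p = 5.70e-09), outside that interval. Il6ra shares 242 exon bases with the antisense gene Gm42809, which had 3 counts in KO library 1 and 0 in every other library. Il6st (ENSMUSG00000021756, chromosome 13, 112464070 to 112510086) had 9.26, 9.61 and 9.37 CPM in KO libraries, against 6.58, 6.51 and 6.78 CPM in WT libraries. Its rise was 0.51 on the log2 scale (SE 0.082, edgeR adjusted p = 4.66e-05). With trends on GC content and gene length removed it was 0.32 (edgeR adjusted p = 0.00250). The KO libraries lay above the WT libraries for both genes, and their spread within a genotype was small, with an SD of 0.282 CPM in KO and 0.264 CPM in WT for Il6ra and of 0.176 CPM in KO and 0.139 CPM in WT for Il6st.

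**Figure D2:**
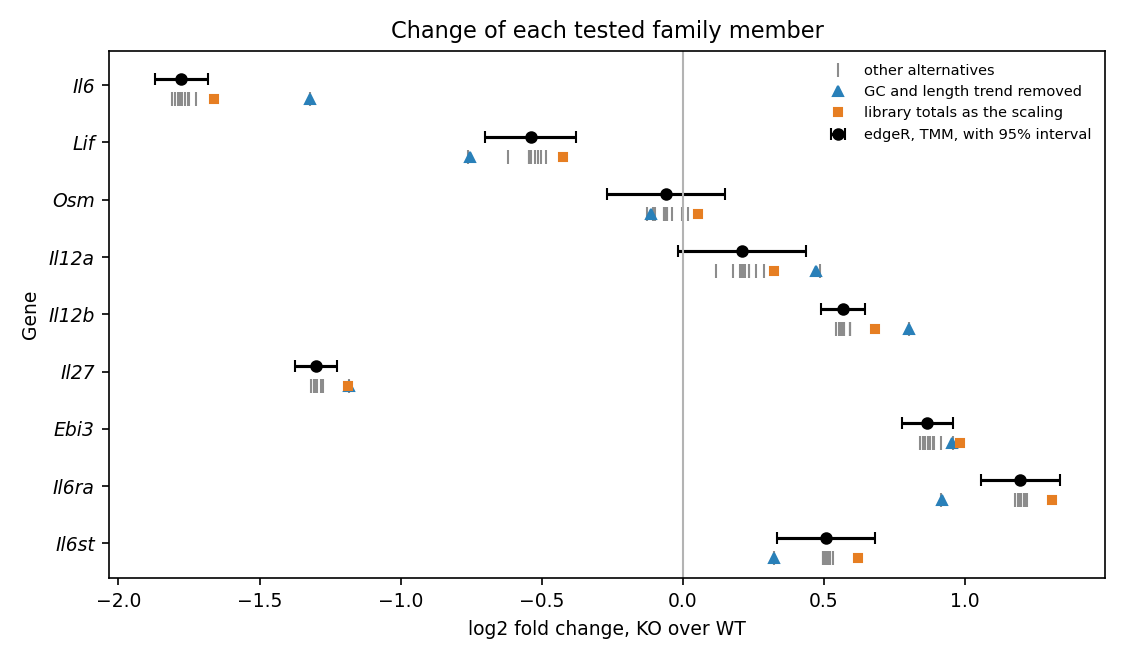
Log2 fold change, KO over WT, of the 9 tested members. Black points are edgeR estimates with 95% intervals, and the marks under each are the values under the alternative settings. Il6, Lif and Il27 lie below 0 and Il12b, Ebi3, Il6ra and Il6st above 0 under every alternative shown, while Osm crosses 0. Removal of the GC and length trend brings Il6 to -1.32.

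Levels of different genes were compared per length, with the deposited FPKM (fragments relative to the gene's length and the library's size). In KO macrophages Ebi3 was the highest member at 95.1 ± 2.56 FPKM, followed by Il12b at 78.4 ± 2.23, Il27 at 70.4 ± 1.43 and Il6 at 27.6 ± 0.945 FPKM (SD, n = 3). In WT macrophages Il27 was highest at 173.0 ± 3.90 FPKM, followed by Il6 at 94.3 ± 5.58, Il12b at 52.8 ± 1.69 and Ebi3 at 52.0 ± 2.86 FPKM (SD, n = 3). Ebi3 was the first member by level in KO and the fourth in WT. In KO the library ranges of all neighbours in the order were separate, although those of Lif and Il6ra nearly touched at 2.26 FPKM. In WT the ranges of Il12b and Ebi3 overlapped, and so did those of Lif and Il12a and of Il12a and Osm. The remaining members lay between 0.0529 and 4.05 FPKM on average in KO and between 0.0179 and 3.55 FPKM in WT, with Il6st and Il23a at the low end in both.

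Ratios of members within a library do not depend on the scaling between libraries. They can still carry trends with GC content and gene length, which were not removed from the ratios. With such trends removed, the log2 fold change was -1.32 for Il6, against -1.78, and 0.92 for Il6ra, against 1.20. For 6 pairs, the log2 ratio of counts was compared by an exact two-sided permutation test over the 6 libraries, whose smallest possible p is 0.1. The log2 ratio of Il27 to Ebi3 was -0.55, -0.64 and -0.64 in KO libraries, against 1.56, 1.50 and 1.62 in WT libraries. It changed sign between the genotypes, with a difference of -2.17 and a pooled SD of 0.0544 (exact p = 0.1, adjusted p over the 6 pairs 0.15). The log2 ratio of Il6 to Il6ra was 1.80 ± 0.0301 in KO and 4.77 ± 0.0626 in WT (SD, n = 3 each), a difference of -2.97 (exact p = 0.1). That of Il6ra to Il6st was 1.04 ± 0.0264 in KO and 0.35 ± 0.0196 in WT, a difference of 0.69 (exact p = 0.1). That of Il12a to Il12b was -4.48 ± 0.106 in KO and -4.14 ± 0.205 in WT, a difference of -0.35 (exact p = 0.1). None of these tests could pass the threshold in this design, and the libraries of the genotypes did not overlap for these 4 pairs. The pairs with Il23a overlapped, with differences of 0.31 for Il23a to Il12b (exact p = 0.8) and -0.66 for Il12a to Il23a (exact p = 0.7), and without KO replicate 2 their signs turned, to -0.42 and 0.012.

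**Figure D3:**
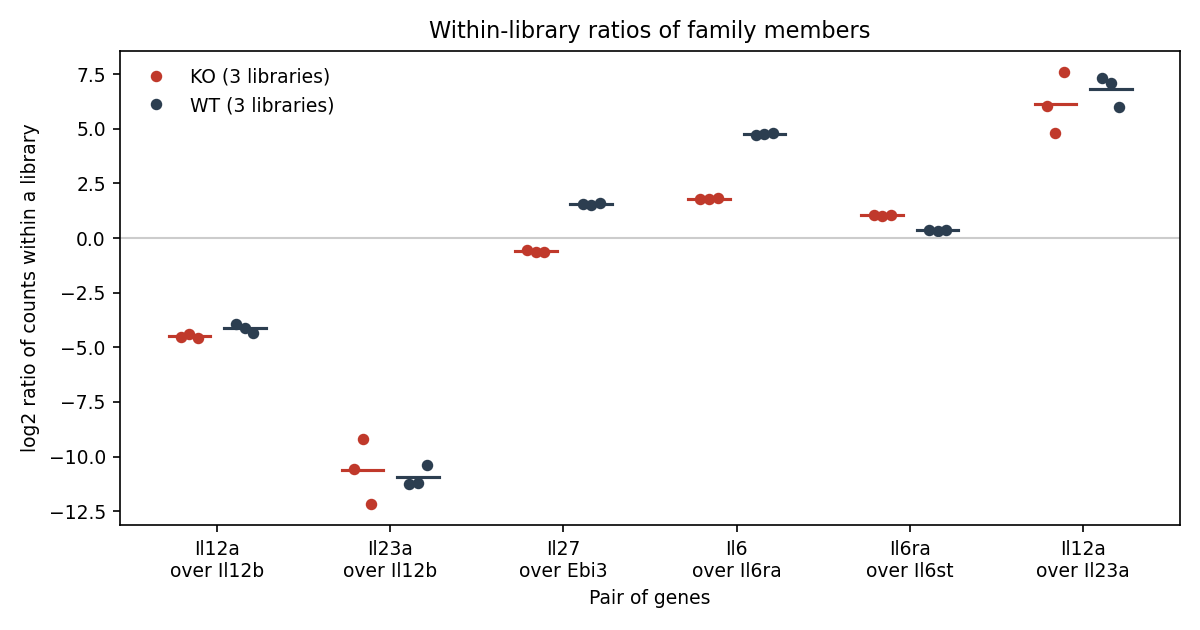
Log2 ratio of counts of 2 members within each library for 6 pairs, KO left and WT right in each pair. Points are libraries and bars are means of 3 libraries. The ratio of Il27 to Ebi3 lies between -0.64 and -0.55 in KO and between 1.50 and 1.62 in WT, and the pairs with Il23a scatter widely.

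Of 6 other ligands of these families, 2 were tested, and both fell, with a median log2 fold change of -0.50. Calls of lower in KO covered 29.8% of all tested genes. Il11, an IL-6 family cytokine, had 2.47, 2.22 and 2.16 CPM in KO libraries, against 4.07, 3.32 and 3.29 CPM in WT libraries, and fell by 0.65 on the log2 scale (SE 0.152, edgeR adjusted p = 0.00140). Clcf1, another cytokine gene of this family, changed by -0.35 (edgeR adjusted p = 0.00666). Scaling by library totals ended that call (-0.23, edgeR adjusted p = 0.0550), and the value was -0.56 once the GC and length trend was removed. Cntf, Ctf1, Ctf2 and Il31 did not pass the filter, with groups that overlapped and no count of Il31 in any library. Stromal cell markers moved in the same direction. Of 10 listed and 9 tested, 5 were called lower and 1 higher, and their summed level was 244 to 252 CPM in KO libraries and 472 to 484 CPM in WT libraries. Acta2 carried most of this difference, with means of 151 CPM in KO and 347 CPM in WT, while Col1a1 averaged 39.0 CPM in KO and 56.3 CPM in WT, and Pdgfrb was the marker called higher (0.23). Their part in these falls, and in that of Lif, was not tested.

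Of 9 other receptor chains, 5 were tested, 2 were called lower and none higher, with a median of -0.51. The shares over all tested genes were 29.8% lower and 31.5% higher. Il23r, the IL-23 receptor chain, averaged 3.83 CPM in KO and 5.45 CPM in WT, with overlapping groups and a log2 fold change of -0.51 (edgeR adjusted p = 0.00580). With the GC and length trend removed it was -0.14 (edgeR adjusted p = 0.444). Lifr, the LIF receptor chain, named after its values were seen, had at most 0.137 CPM in KO and 0.608 CPM in WT, and a gene that reaches the filter in WT alone had to be lower in KO. Osmr, Il12rb1 and Il11ra1, also named after their values were seen, were not called, at -0.52, -0.33 and -0.039, and 46.3% of the 50-base stretches of Il11ra1 occur in transcripts of other genes, so its counts are uncertain.

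Among kinases, STAT factors and regulators downstream of these receptors, all 14 listed genes were tested, 7 were called higher and 1 lower, with a median of 0.14. Of all tested genes, 31.5% were called higher and 29.8% lower. The 3 largest called changes in the list were those of Gab1, a docking adaptor, at 0.85 (SE 0.124, edgeR adjusted p = 1.60e-05), Ptpn11, which encodes the phosphatase SHP2, at 0.68, and Pias3, a STAT3 inhibitor, at 0.68. Ptpn11 averaged 67.3 ± 1.69 CPM in KO and 42.0 ± 1.70 CPM in WT (SD, n = 3 each), and its log2 fold change was 0.41 once the GC and length trend was removed. Under the same removal Gab1 was at 0.61 and Pias3 at 0.47. Stat3 and its feedback target Socs3, named after their values were seen, were at 0.19 and 0.080, both called (edgeR adjusted p = 1.26e-04 for Stat3 and 0.0271 for Socs3). Socs3 averaged 549 CPM in KO and 519 CPM in WT. The direction of this list depended on the processing. With the GC and length trend removed its median was -0.077, with 4 called higher and 6 lower, and under library totals the median was 0.25, with 11 called higher and 1 lower. The median was 0.080 without WT replicate 2 and 0.075 without KO replicate 3.

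Known regulators of Il6 and Il12b expression moved both ways. All 17 listed were tested, 3 were called higher and 8 lower, with a median of -0.056, which was 0.059 with library totals as the scaling and -0.20 once the GC and length trend was removed. Without WT replicate 1, 5 were called higher. Over all tested genes, 31.5% were called higher and 29.8% lower. Il10, a secreted brake on macrophage cytokine production, had 19.6, 19.4 and 19.4 CPM in KO libraries, against 101, 104 and 109 CPM in WT libraries, and fell by 2.43 on the log2 scale (SE 0.0434, edgeR adjusted p = 4.43e-16). With the GC and length trend removed, its log2 fold change was -2.00. Zfp36, whose product promotes decay of cytokine mRNAs, averaged 115 CPM in KO and 166 CPM in WT and fell by 0.53. Its log2 fold change was -0.70 once the GC and length trend was removed. Arid5a, whose product stabilises Il6 mRNA, fell by 0.49 (SE 0.0769, edgeR adjusted p = 3.19e-05) and by 0.91 once the GC and length trend was removed. The proteases Adam10 and Adam17, which can release the soluble IL-6 receptor, were not called, at 0.0096 and 0.051.

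**Figure D4:**
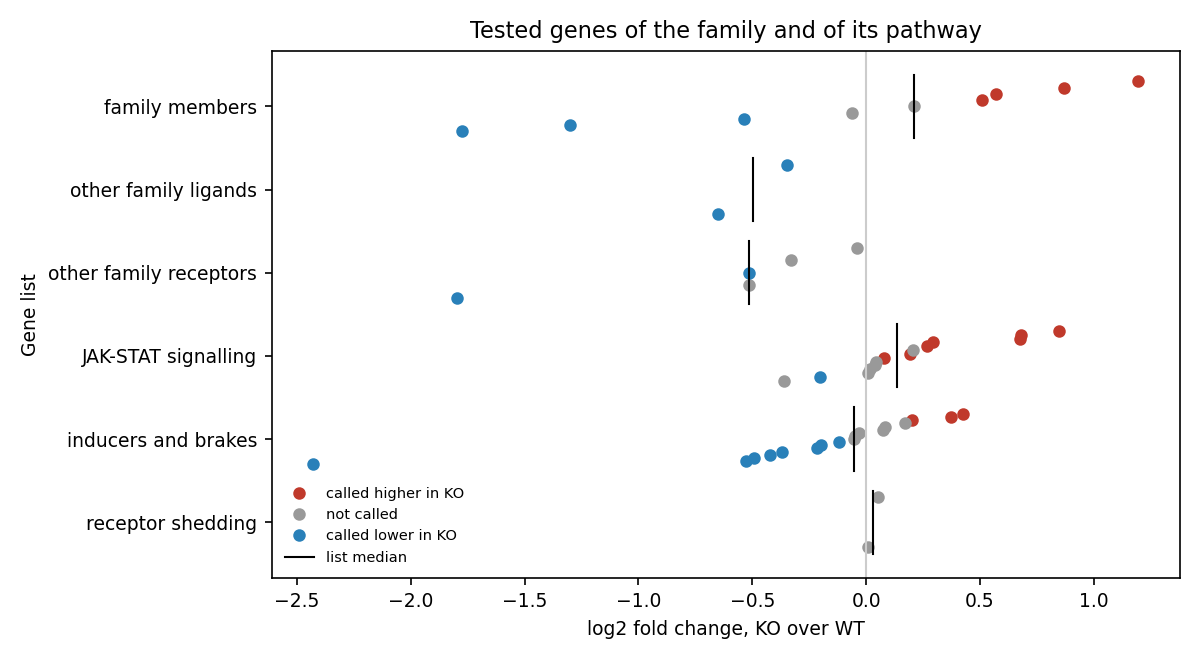
Log2 fold change, KO over WT, of the tested genes in the family and in 5 lists of its pathway. Points are genes, coloured by call at an edgeR adjusted p under 0.05, and vertical bars are list medians. The other ligands lie at -0.65 and -0.35, and Il10 at -2.43 is the lowest point. The JAK-STAT list straddles 0, with a median of 0.14 that is -0.077 once the GC and length trend is removed.

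The genes whose pattern over the 6 libraries was nearest to that of Il6 were Ccl2, Gnb4 and Sectm1a. Likeness was the Euclidean distance between log2 CPM values centred on each gene's mean, and the distances were 0.119, 0.222 and 0.236. Ccl2, a monocyte chemoattractant, had 208, 216 and 218 CPM in KO libraries, against 743, 713 and 747 CPM in WT libraries, a log2 fold change of -1.78. Gnb4, a G protein subunit, was at -1.63 and Sectm1a at -1.71. The genes nearest to Il6st were Glud1, the mitochondrial glutamate dehydrogenase gene, Xpo6, a nuclear export receptor gene, and Mgea5, at distances of 0.0401, 0.0414 and 0.044. Their log2 fold changes were 0.52, 0.48 and 0.48, against 0.51 for Il6st. The nearest genes of Il6 and Il6st were picked from 10901 candidates over the same 6 libraries, so similar fold changes follow from the choice.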

How the data were processed

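RNA sequencing of LPS-treated bone marrow-derived macrophages was analysed for KO and WT, 3 libraries each, grouped by their titles. Libraries were made from total RNA with a NEBNext Ultra kit, per the labels' protocols. The submitters' processing notes name Bowtie 0.12.2, mm8 and mm10 without their roles, and the sources used here do not give the counting method. As deposited, the table holds whole-number counts per gene, which were tested, and FPKM values, which were used to compare levels between genes. The authors also deposited mean normalized signal per genotype, log2 fold changes and p-values, which were not used. Deposited positions matched GENCODE vM21 (mm10) for 98.3% of the identifiers found there.

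Counts were tested with edgeR 4.0.16 in R 4.3.3 by the quasi-likelihood test, with TMM scaling, the default expression filter and genotype as the term. P-values were adjusted by Benjamini-Hochberg over all 13080 tested genes, and the SE was obtained as the size of the log2 fold change over the root of F. Within-library ratios used counts plus 0.5. Alternatives were library totals or DESeq2 size factors as the scaling, DESeq2 1.42.0, no expression filter, a replicate block, removal of a spline trend on GC content (longest GENCODE transcript) and gene length, and leaving out each library. Same-genotype pairs differed beyond sampling noise (chi-square per degree of freedom 2.66 to 5.91). Gene sequences shared with other genes were searched as 50-base stretches, and no member shared any. The named genes were Xbp1, all members, up to 3 called genes of at least 1 CPM with the largest change per pathway list, and the 3 genes nearest to Il6 and to Il6st. The members and lists were chosen with earlier results of these data known. A gene of the lists is not reported here.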

Additional observations from a re-analysis of the deposited data

How the results depend on the processing

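The calls of Il6, Lif, Il12b, Il27, Ebi3, Il6ra and Il6st kept their direction and significance under all 13 alternatives. Members called higher numbered 4 or 5 and members called lower 3 throughout. Library totals as the scaling shifted the median log2 fold change of all genes to 0.11, against -0.0016 with TMM, and gave 5120 genes higher and 2956 lower, against 4115 and 3904. Under that scaling 18 pathway genes were called higher, against 10, of which 11 in the JAK-STAT list, 6 among the inducers and brakes and 1 among the shedding proteases, 1 of the other ligands was called lower, against 2, and Osm was at 0.054. With the GC and length trend removed 21 pathway genes were called lower, against 13, of which 4 were receptors and 6 JAK-STAT genes, while 4 JAK-STAT genes and 1 shedding protease were called higher. With this trend and a replicate block together 20 pathway genes were called lower, the JAK-STAT counts were 4 higher and 6 lower, and 1 shedding protease was higher. With no expression filter 5 inducers and brakes were called higher, against 3. The cause was not tested.

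Leaving out each library in turn gave 3 to 5 inducers and brakes called higher, Osm between -0.13 and 0.019, the difference in the Il23a to Il12b ratio between -0.42 and 1.07 and that in the Il12a to Il23a ratio between -1.37 and 0.012. Without KO replicate 2, which holds most Il23a counts, those ratios were -0.42 and 0.012. The replicate block gave 4116 genes higher and 3897 lower and the same member calls. Deviations from the genotype mean correlated at -0.0368, 0.0355 and 0.0362 between same-numbered libraries, and at -0.0675 to 0.0387 between differently numbered ones. A pairing with little shared variation would not show here, so whether the numbers pair samples is not known. Depth limits Il23a, at 1 to 9 counts per library.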
